A study of Mus musculus with 6 samples.

Results

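The genes of the cytosolic ribosomal proteins were compared between ethanol-fed mice that lack Cd44 in myeloid cells and their littermates. They were taken as every protein-coding gene whose symbol starts with Rpl or Rps and a digit or a stalk letter, together with Rpsa, without the Rps6k kinases and without symbols that end in -ps, which mark processed copies. Of the 54532 genes in the count table, 86 met this rule: 31 proteins of the 40S subunit, 46 of the 60S subunit, and 9 that are paralogs, retrocopies or binding proteins. Ribosomal proteins with other symbols, such as Rack1 and Fau, fall outside the rule and are given with the related lists.

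The 3 knockout mice, labelled CD44 KO LysM, had the genotype LysMcre/+ Cd44flox/flox, and the 3 control mice, labelled WT, were littermates with LysM+/+ Cd44flox/flox, all on C57BL/6J/Rj. Both groups were fed 6% (vol/vol) ethanol in a Lieber-DeCarli diet for 10 days, and on day 11 a gavage of 5 g/kg ethanol preceded liver collection by 9 hours. LysM-Cre sits in the lysozyme gene Lyz2 and recombines floxed DNA in myeloid cells (macrophages, monocytes and neutrophils), so hepatocytes keep Cd44, which encodes a hyaluronan receptor. No source used here gives the age of the mice. Mice with Cre alone and mice without ethanol were not analysed here. Whole liver was sequenced, to between 18428224 and 24042917 counts per liver. Cd44 stood at 2.11, 1.92 and 3.01 CPM (counts scaled to a common library size) in the knockout livers, against 32.6, 34.8 and 26.4 CPM in the control livers. Lyz2 stood at 41.3, 36.9 and 66.5 CPM in the knockout livers and at 195, 218 and 235 CPM in the control livers. For both genes every knockout liver was below every control liver, and for Cd44 this is the direction that the genotype labels give.

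Each cytosolic ribosome joins a small 40S subunit, which holds and reads the mRNA, to a large 60S subunit, which forms the peptide bonds. Its proteins are made in matched amounts, and their mRNAs typically start with a C followed by a run of pyrimidines, the terminal oligopyrimidine (TOP) motif, through which the kinase complex mTORC1 and the RNA-binding protein LARP1 set their translation and stability as a group. Hepatocytes are rich in ribosomes because they secrete most plasma proteins, and immune cells that enter the liver bring ribosomal protein mRNAs of their own.

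Ribosomal protein mRNAs took a smaller share of the liver transcriptome in the knockout. The 86 genes held 1.20%, 1.12% and 1.47% of all counts in the knockout livers, against 2.00%, 1.88% and 1.83% in the control livers. The means were 1.26% ± 0.183 and 1.91% ± 0.088 (SD, n = 3 livers each), a difference of −0.644 percentage points, and the groups did not overlap. Wilson 95% intervals, which cover counting error only, ran from 1.12% to 1.13% in the lowest knockout liver and from 1.83% to 1.84% in the lowest control liver. Both subunits were lower: the 40S genes held 0.512% ± 0.0752 in the knockout livers and 0.786% ± 0.0365 in the control livers, and the 60S genes 0.724% ± 0.110 and 1.09% ± 0.0524 (SD, n = 3 each). The ratio of 60S to 40S counts was 1.41 ± 0.0288 in the knockout livers and 1.38 ± 0.00597 in the control livers, a difference of 2.403%, while the 40S and 60S shares were lower by 34.9% and 33.3%. These are shares of library totals. Scaled on those totals, the median log2 fold change (knockout over control) of all genes tested was itself −0.26, against −0.60 for the members. With the TMM scaling used below, these medians were −0.01 and −0.34. The shares carry no test, since 3 livers against 3 cannot reach a two-sided exact p under 0.1. In whole liver, fewer cells of a type that is rich in these mRNAs and less of these mRNAs per cell cannot be told apart.

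Of the 82 members with enough counts to be tested, 30 were lower in the knockout livers and 0 were higher at an adjusted p under 0.05 by edgeR's quasi-likelihood test. Across all 14758 genes tested, 13.1% were lower and 11.9% were higher, against 36.6% of the tested members that were lower. No member was higher at an unadjusted p under 0.05 or by DESeq2 or limma-voom. DESeq2 and limma-voom called 35 and 31 members lower (42.7% and 37.8%, against 14.3% and 13.4% of all genes). The log2 fold change was negative for 78 of the 82 members, with a median of −0.34, against a median of −0.01 over all genes tested. Scaled on the summed ribosomal protein counts themselves, the median of the members is 0.00 by construction. The CPM of the knockout and control livers did not overlap for 51 of the 82 members, all 51 lower in the knockout, where 22.5% of all genes tested were lower and 21.4% higher without overlap. The 40S subunit had 13 of 31 members called lower (median log2 −0.39) and the 60S subunit 15 of 45 (median −0.32).

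**Figure D1:**
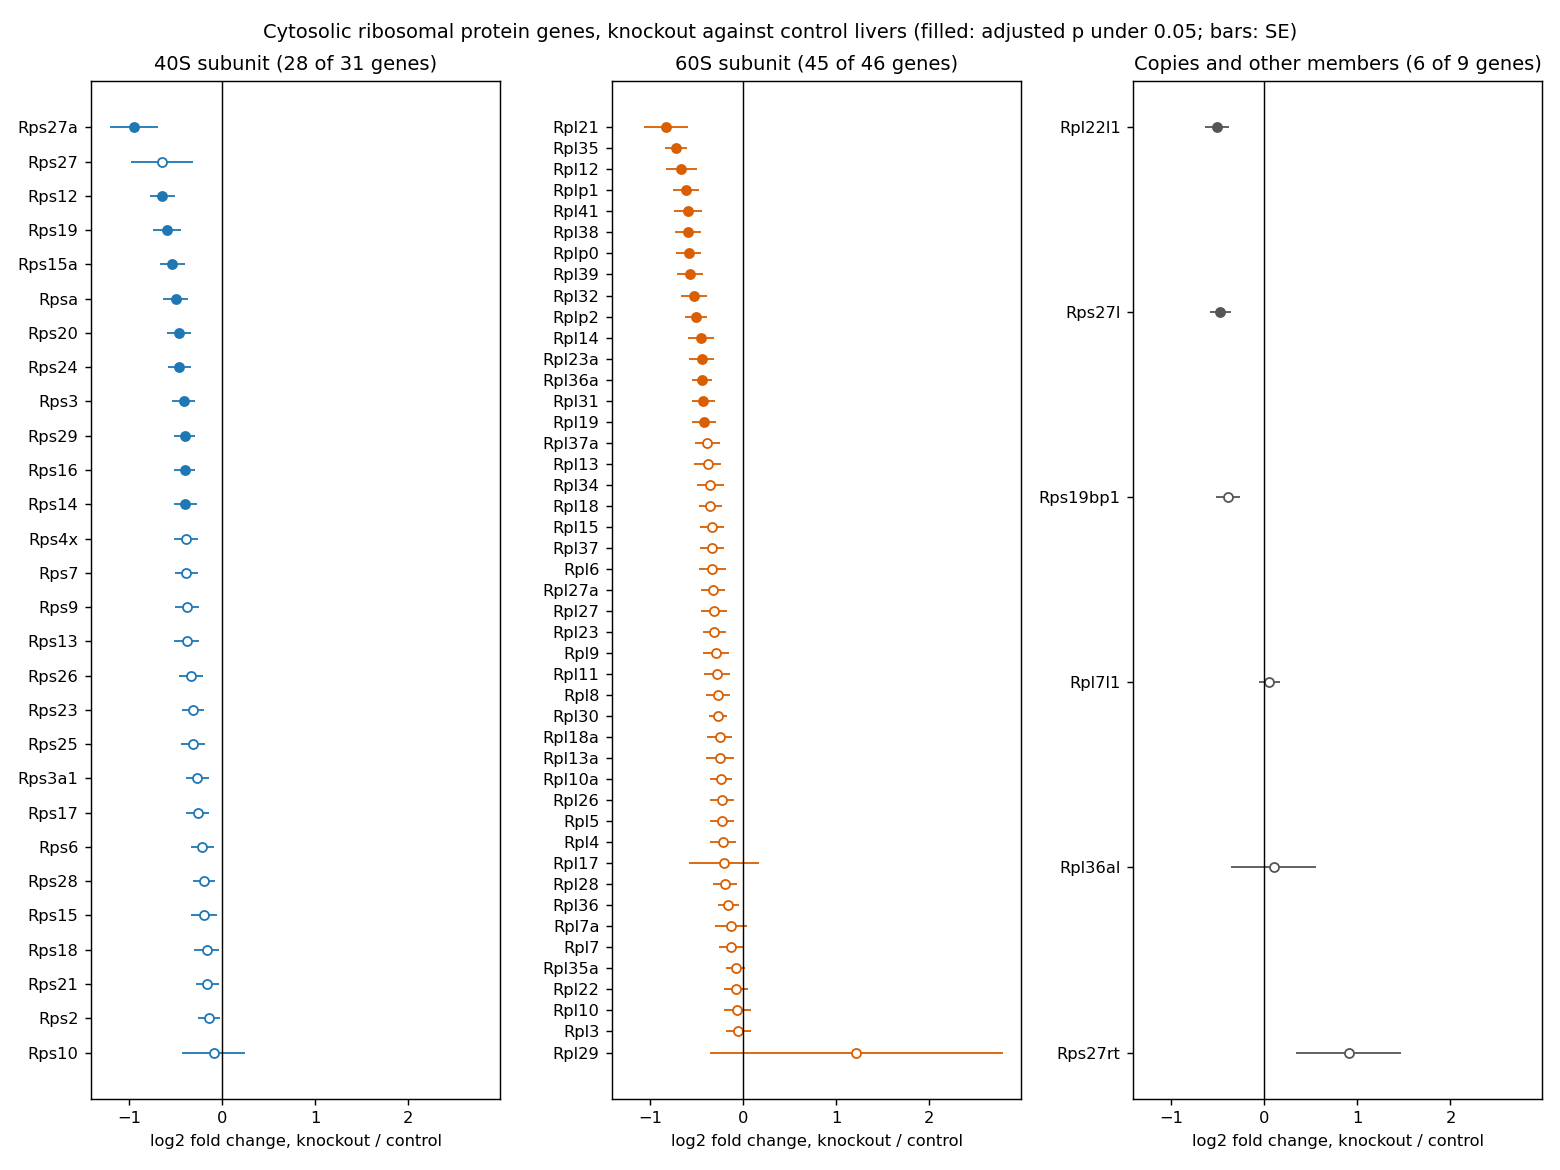
Log2 fold change (knockout over control, x axis) of 79 of the 82 tested members, by subunit, from the fit over all genes; bars are standard errors and filled points have an adjusted p under 0.05. All 28 of the 40S points drawn and 44 of the 45 of the 60S points lie below 0, and Rpl29 at 1.22 has the widest bar; scaled on the ribosomal protein counts themselves, the median of the points is 0.00.

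The 3 knockout livers were not alike. The median over the 76 tested standard members of log2 CPM against the control mean was −0.49, −0.42 and −0.17 in knockout livers 1, 2 and 3, and 0.07, −0.05 and −0.02 in control livers 1, 2 and 3. Knockout liver 3 thus lay nearest the controls. How many members passed depended on which livers were in the fit. Without knockout liver 3, 42 members were lower, which is 50.6% of those tested, against 12.1% of all genes. Without knockout liver 1 only 2 were lower (2.44%, against 7.78% of all genes), without knockout liver 2 there were 8 (9.64%, against 10.8%), and without control liver 3 there were 6 (7.23%, against 8.68%). In these 3 fits the share of members called was below that of all genes. Without control liver 1 or control liver 2 there were 8 each (9.76% and 9.64%), close to the 9.05% and 7.90% of all genes. The higher share of lower calls among the members thus held with all 6 livers and without knockout liver 3, and not clearly in the other 5 fits. At an adjusted p under 0.01, 1 member was lower (1.22%), against 5.36% of all genes. The median log2 fold change stayed between −0.44 and −0.29 over these fits. Rpl35 and Rps12 were called lower with any 1 liver left out, and every other called member lost its call in at least 1 of these fits.

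**Figure D2:**
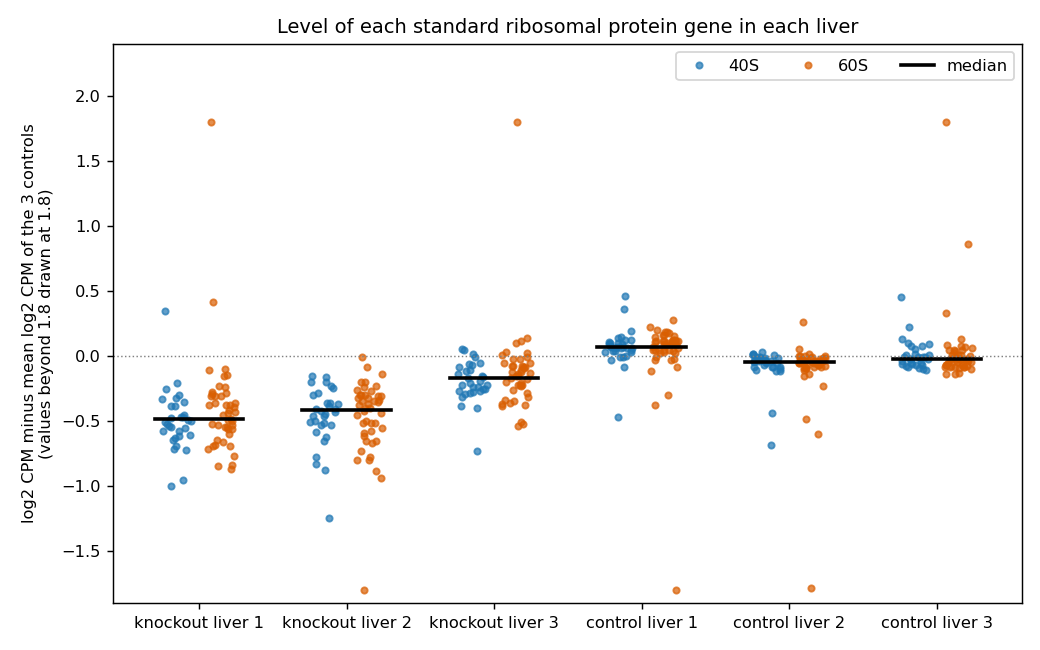
Level of each of the 76 tested standard members in each liver, as log2 CPM minus the mean log2 CPM of the 3 control livers (y axis); points are genes, 40S left and 60S right within a liver, lines are medians, and values of Rpl29 beyond the scale are drawn at its edge. The medians are −0.49, −0.42 and −0.17 in the knockout livers and 0.07, −0.05 and −0.02 in the control livers.

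Among the 60S proteins, Rpl35 had the smallest p. Rpl35 sits at the mouth of the tunnel through which the new peptide leaves the ribosome. It stood at 64.0, 66.3 and 80.3 CPM in the knockout livers, against 119, 114 and 114 CPM in the control livers, with no overlap. Its log2 fold change was −0.72 (SE 0.12, adjusted p = 0.00454), which is 39.3% lower. Exons of Wdr38 and Arpc5l on the opposite strand cover 66.2% of its exonic bases. Since no source used here gives the strand setting, reads of Rpl35 and these neighbours cannot be told apart, and the value is uncertain. Arpc5l, a subunit of the actin-nucleating Arp2/3 complex, had 877, 904 and 954 counts in the knockout livers and 1309, 1256 and 1230 counts in the control livers.

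The mRNAs of the ribosomal stalk proteins were all lower, as those of most members were. The stalk is a flexible arm of the 60S subunit, built from the base protein Rplp0 and the acidic proteins Rplp1 and Rplp2, that recruits and activates the elongation factors. Rplp0 stood at 388, 378 and 485 CPM in the knockout livers and at 624, 624 and 630 CPM in the control livers. Rplp1 stood at 310, 298 and 393 CPM in the knockout livers and at 500, 492 and 542 CPM in the control livers. Rplp2 stood at 124, 132 and 153 CPM in the knockout livers, against 203, 190 and 191 CPM in the control livers. No knockout liver reached the lowest control liver for any of these genes. The log2 fold changes were −0.59 for Rplp0 (SE 0.14, adjusted p = 0.0170), −0.62 for Rplp1 (SE 0.14, adjusted p = 0.0164) and −0.51 for Rplp2 (SE 0.12, adjusted p = 0.0166).

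Rpl38 and Rpl41 were next among the 60S members by p, followed by Rpl12, which was chosen after its values were seen. Rpl38 is a small surface protein whose loss in the mouse tail-short mutant disturbs the patterning of the skeleton. It stood at 84.6, 76.5 and 106 CPM in the knockout livers, against 131, 133 and 138 CPM in the control livers (log2 −0.59, SE 0.14, adjusted p = 0.0166). Rpl41, the shortest ribosomal protein, lies at the interface of the subunits. It stood at 240, 282 and 336 CPM in the knockout livers and at 439, 407 and 449 CPM in the control livers (log2 −0.59, SE 0.15, adjusted p = 0.0206). Rpl12, a neighbour of the stalk base, stood at 129, 109 and 161 CPM in the knockout livers and at 241, 200 and 192 CPM in the control livers (log2 −0.66, SE 0.17, adjusted p = 0.0215). None of these genes overlapped between the groups. The other 60S members called lower were Rpl36a, Rpl39, Rpl32, Rpl31, Rpl21, Rpl14, Rpl23a and Rpl19, with log2 fold changes between −0.83 and −0.42. Of these, Rpl21 overlapped between the groups, the only one of the 30 called members that did, at 30.2, 29.9 and 38.1 CPM in the knockout livers and 67.5, 36.5 and 70.1 CPM in the control livers. Its adjusted p was 0.0363, and it was above 0.05 on leaving out knockout liver 1 (0.113), knockout liver 2 (0.0873), control liver 1 (0.109) or control liver 3 (0.121). With its processed copies, which held 53.3% of the family's counts, Rpl21 had a log2 fold change of −0.50 (adjusted p = 0.0527). Rpl23a has 59.7% of its exonic bases under antisense exons of Tlcd1, which makes its value uncertain.

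Among the 40S proteins, Rps12 had the smallest p. Rps12 lies in the beak of the small subunit, and in Drosophila it is needed for the competition between cells that differ in their ribosomes. It stood at 64.5, 59.9 and 81.1 CPM in the knockout livers, against 110, 106 and 105 CPM in the control livers, with no overlap (log2 −0.64, SE 0.13, adjusted p = 0.0107, 36.0% lower). Rps19, the protein most often mutated in human Diamond-Blackfan anaemia, stood at 125, 120 and 165 CPM in the knockout livers and at 219, 190 and 207 CPM in the control livers (log2 −0.59, SE 0.15, adjusted p = 0.0216). Rps24, another gene of that disease, stood at 162, 170 and 204 CPM in the knockout livers and at 247, 248 and 245 CPM in the control livers (log2 −0.46, SE 0.12, adjusted p = 0.0277). Rps15a, which binds the central part of the small ribosomal RNA, stood at 78.0, 80.2 and 104 CPM in the knockout livers and at 133, 129 and 117 CPM in the control livers (log2 −0.53, SE 0.14, adjusted p = 0.0250). In each of these the highest knockout liver was liver 3, and it stayed below the lowest control liver.

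Rpsa, also known as the laminin receptor precursor, lies near the site where the mRNA leaves the small subunit. It stood at 331, 346 and 426 CPM in the knockout livers and at 531, 505 and 521 CPM in the control livers (log2 −0.50, SE 0.14, adjusted p = 0.0289). The groups did not overlap. Further 40S members called lower were Rps27a, Rps20, Rps29, Rps16, Rps3 and Rps14, with log2 fold changes between −0.95 and −0.39. Rps27a, made as a fusion with ubiquitin that is cut off after synthesis, had the most negative log2 fold change of all members and is described for that reason, after its values were seen. It stood at 72.7, 79.3 and 87.6 CPM in the knockout livers, against 201, 90.6 and 171 CPM in the control livers. Control liver 2 lay close to the knockout livers, so the groups came close to overlapping. It gave a log2 fold change of −0.95 (SE 0.26, adjusted p = 0.0297). Leaving out control liver 2 lowered the adjusted p to 0.00408, and leaving out any 1 of the other 5 livers put it at 0.0535 to 0.0993.

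The start sites of 8 members are shown because the TOP motif is read from the first bases of the mRNA. They are the 5 called members with the smallest p, and the 3 uncalled members with the largest p, among standard members with a single promoter in the RefSeq table (GRCm38.p6). Each sequence covers 40 bases before the listed start and 20 from it on. Capitals mark a run of pyrimidines from a C followed by at least 4 of them, within 10 bases of the listed start. Of several such C, the one nearest the listed start was taken, so capitals need not show where the pyrimidines begin. In Rpl35, Rplp2, Rpl38, Rps10 and Rpl7a, pyrimidines in lower case lie directly before the capitals.
Rpl35, chr2:39005112-39005171, minus strand: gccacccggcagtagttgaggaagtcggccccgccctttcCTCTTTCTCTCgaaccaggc
Rps12, chr10:23787190-23787249, minus strand: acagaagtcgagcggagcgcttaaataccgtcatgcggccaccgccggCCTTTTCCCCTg
Rplp2, chr7:141447611-141447670, plus strand: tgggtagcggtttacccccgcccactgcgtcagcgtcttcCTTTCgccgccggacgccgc
Rpl38, chr11:114668540-114668599, plus strand: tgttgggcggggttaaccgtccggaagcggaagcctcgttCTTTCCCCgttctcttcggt
Rplp0, chr5:115559427-115559486, plus strand: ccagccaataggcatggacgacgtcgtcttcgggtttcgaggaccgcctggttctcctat
Rps10, chr17:27635225-27635284, minus strand: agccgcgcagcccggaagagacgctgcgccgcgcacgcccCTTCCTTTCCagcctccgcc
Rpl10, chrX:74270776-74270835, plus strand: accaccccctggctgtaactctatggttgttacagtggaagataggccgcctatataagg
Rpl7a, chr2:26910767-26910826, plus strand: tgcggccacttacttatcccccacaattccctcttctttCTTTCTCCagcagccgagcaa
Such a run was present in 6 of these 8 promoters, in members called lower (Rpl35, Rps12, Rplp2 and Rpl38) and in members not called (Rps10 and Rpl7a), while no such run began within 10 bases of the listed start in Rplp0 and Rpl10. The listed starts may not be those used in liver, so presence or absence here does not tell whether the liver mRNA starts with the motif. RefSeq promoters were matched to 66 of the 86 members. A run was found in 15 of the 20 matched genes called lower (75.0%) and in 22 of the 42 that did not pass (52.4%). Per gene, a run was in 60.6% of the 66 members, 44.9% of 69 mitochondrial ribosomal protein genes and 34.4% of all 27025 genes. Over promoters rather than genes it was in 53.9% of 78 promoters of members, 41.3% of 75 promoters of mitochondrial ribosomal proteins and 30.7% of all 32851 promoters. The letters CCGGAAG, searched on both strands of the 300 bases as the core of an ETS site, were in 34.6% of the members' promoters, 34.7% of the mitochondrial ribosomal protein promoters and 8.86% of all. The letters AAGATGGC, searched the same way as a YY1 core, were in 10.3%, 16.0% and 2.75% of these sets. A match describes these letters in this window and is not a shown site.

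Of the 82 tested members 52 did not pass, and in 22 of these every knockout liver was below every control liver. Over all genes tested, called or not, 22.5% were lower without overlap. The share among the genes that did not pass was not taken. Of the genes in this paragraph all but Rpl10 were chosen after their values were seen. Rpl10, which is placed last on the maturing 60S subunit, stood at 447, 408 and 529 CPM in the knockout livers and at 535, 445 and 466 CPM in the control livers (log2 −0.06, adjusted p = 0.785). Rpl3, which reaches to the peptidyl transferase centre, stood at 292, 323 and 329 CPM in the knockout livers and at 379, 294 and 305 CPM in the control livers (log2 −0.05, adjusted p = 0.819). Both genes overlapped between the groups. Rpl5 and Rpl11, which bind 5S ribosomal RNA and can hold the p53 ligase MDM2 when they are not built into ribosomes, had log2 fold changes of −0.23 (adjusted p = 0.238) and −0.28 (adjusted p = 0.184). Rps6, the substrate of the S6 kinases, had a log2 fold change of −0.21 (adjusted p = 0.243).

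To see which members left the common course, the fit was repeated with each liver scaled on its summed standard ribosomal protein counts. Then 1 of 82 members was lower and 0 were higher, where 6.95% of all genes were lower and 30.2% were higher. The lower one was Rpl35 (relative log2 −0.37, adjusted p = 0.0458), whose value is uncertain as given above. At an unadjusted p under 0.05, 3 members were lower and 1 was higher, DESeq2 called 2 lower and 0 higher, and limma-voom 1 and 0. Rps27a and Rps12 had relative log2 values of −0.58 (adjusted p = 0.0741) and −0.30 (adjusted p = 0.0968). On the higher side the smallest p belonged to Rpl7l1, at a relative log2 of 0.41 (adjusted p = 0.0806), followed by Rps27rt at 1.298 (adjusted p = 0.102), Rpl22 at 0.27 (adjusted p = 0.125), Rpl3 at 0.31 (adjusted p = 0.130) and Rpl10 at 0.29 (adjusted p = 0.142). Across the 76 standard members, the log2 fold change had a Spearman's rho of 0.065 with transcript length, 0.029 with GC content and 0.053 with mean CPM, as a description of genes that share 6 libraries.

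Of the 9 members that are not standard subunits, 6 were tested and 2 were lower. Rps27l, a paralog of Rps27 that p53 induces in human cells, stood at 111, 125 and 133 CPM in the knockout livers, against 169, 167 and 176 CPM in the control livers (log2 −0.47, SE 0.11, adjusted p = 0.0178). Rpl22l1, a paralog of Rpl22 whose level Rpl22 holds down in mice, stood at 17.7, 15.4 and 17.9 CPM in the knockout livers and at 27.2, 22.5 and 22.6 CPM in the control livers (log2 −0.50, SE 0.13, adjusted p = 0.0224). Neither gene overlapped between the groups, while Rpl22 itself stood at 85.9, 91.3 and 109 CPM in the knockout livers and at 109, 97.9 and 95.6 CPM in the control livers (log2 −0.08, adjusted p = 0.686). Rps19bp1, a binding partner of Rps19 and not a subunit, had a log2 fold change of −0.39 (adjusted p = 0.0569). Rpl7l1, a paralog of Rpl7 found on assembling 60S subunits in human cells, stood at 83.0, 77.4 and 76.3 CPM in the knockout livers and at 69.1, 84.1 and 75.0 CPM in the control livers (log2 0.05, adjusted p = 0.772). Rpl36al had low values, at 2.06, 0.529 and 1.13 CPM in the knockout livers and 1.19, 1.06 and 1.22 CPM in the control livers (adjusted p = 0.900). Its level is uncertain, since 24.5% of its exonic bases lie under Gm49383 on the same strand, which had 0 or 1 counts per liver.

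The remaining members had too few counts to be tested. Rpl10l and Rpl39l are paralogs used mainly in the testis, and Rpl3l is used mainly in muscle. Rpl10l had 0 counts in every liver, which allows up to 0.119 to 0.148 CPM per liver at a limit of 3 counts. Rpl39l had 0, 0 and 0 counts in the knockout livers against 5, 2 and 4 counts in the control livers. Rpl3l had 1, 2 and 0 counts in the knockout livers and 6, 1 and 0 counts in the control livers. Rpl24, a standard 60S protein, had 15, 5 and 8 counts in the knockout livers and 11, 3 and 8 counts in the control livers. Of its exonic bases 47.0% lie under Gm28037, a readthrough transcript on the same strand that had 0 counts in every liver, and 88.1% of the counts of Rpl24 and its copies were in the copies. The low count of Rpl24 therefore cannot be read as a low level.

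Ribosomal protein genes have many processed copies in the genome, and no source used here says how reads that fit several places were counted. Pseudogenes, genes with -ps symbols and Rps27rt that matched a standard member at 90% identity or more over at least 150 bases numbered 1092, of which 517 had counts, and 74 members had at least 1 such copy. Copies held 7.75% of the counts of all families, more than 10% in 20 standard members and more than 50% in 4. With the copies added to their gene, 28 of 82 members were lower and 0 higher, where 13.2% of all genes were lower and 11.9% higher, and 27 of the 28 were among the 30 called without copies. Rpl21, Rpl14 and Rpl23a lost their calls (adjusted p = 0.0527, 0.0531 and 0.0657). Copies held 53.3%, 21.4% and 29.5% of the counts of these families. The share of counts with the copies added was 1.36% ± 0.200 in the knockout livers and 2.06% ± 0.101 in the control livers (SD, n = 3 each).

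Rps27, Rpl29, Rpl17 and Rps10 are described after their values were seen, because their counts varied between livers and much of each family's count lay in copies. Rps27, a zinc-finger protein of the 40S subunit, and its retrocopy Rps27rt have identical coding sequences of 255 bases, so reads inside them have no unique place. Rps27 lies at chr3:90212522-90213651 on the minus strand, Rps27rt at chr9:114982366-114982739 on the minus strand and Rps27l at chr9:66946086-66949516 on the plus strand (GENCODE M21, GRCm38). The coding sequences of Rps27, which is also that of Rps27rt, and of Rps27l are shown to compare them, and capitals in Rps27l mark its 61 differences (76.1% identity).
Rps27: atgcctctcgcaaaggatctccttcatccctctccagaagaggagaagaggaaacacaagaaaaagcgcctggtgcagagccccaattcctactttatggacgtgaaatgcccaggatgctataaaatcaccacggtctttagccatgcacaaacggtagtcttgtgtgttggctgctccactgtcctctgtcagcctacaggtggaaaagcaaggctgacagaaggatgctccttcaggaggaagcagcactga
Rps27l: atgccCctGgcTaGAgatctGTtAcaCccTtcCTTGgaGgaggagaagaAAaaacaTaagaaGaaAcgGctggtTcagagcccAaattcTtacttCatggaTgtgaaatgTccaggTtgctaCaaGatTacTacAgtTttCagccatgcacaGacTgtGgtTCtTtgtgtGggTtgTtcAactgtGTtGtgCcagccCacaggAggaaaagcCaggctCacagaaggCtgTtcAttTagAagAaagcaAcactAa
Rps27 had 1314, 1072 and 2573 counts in the knockout livers, against 3981, 1874 and 2974 counts in the control livers (log2 −0.65, adjusted p = 0.194). Without knockout liver 3 its log2 fold change was −1.13 (adjusted p = 0.0166). Without any other single liver it was −0.82 to −0.40 (adjusted p = 0.154 to 0.439). Rps27rt had 1419, 2066 and 457 counts in the knockout livers, against 551, 1253 and 438 counts in the control livers (log2 0.91, adjusted p = 0.277). The 3 livers with the fewest Rps27 counts (knockout livers 1 and 2 and control liver 2) were the 3 with the most Rps27rt counts. Summed with all copies, the family had 2736, 3140 and 3034 counts in the knockout livers and 4533, 3128 and 3414 counts in the control livers (log2 −0.15, adjusted p = 0.402).

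Rpl29, a 60S protein that also binds heparin, was either almost absent or abundant. It had 1937, 17 and 1135 counts in the knockout livers, against 18, 18 and 1443 counts in the control livers (log2 1.22, SE 1.57, adjusted p = 0.612). High and low livers occurred in both groups, and leaving out control liver 3 gave a log2 value of 6.00 (adjusted p = 0.0528), and leaving out knockout liver 1 gave 0.41. With copies the family had 2221, 547 and 1666 counts in the knockout livers and 1104, 843 and 2104 counts in the control livers (log2 0.28, adjusted p = 0.706). Rpl17, a 60S protein near the exit tunnel, had 1341, 834 and 686 counts in the knockout livers and 930, 710 and 2024 counts in the control livers, but 75.5% of its family's counts were in copies. The family had 3513, 3404 and 4305 counts in the knockout livers against 5986, 4556 and 4865 counts in the control livers (log2 −0.30, adjusted p = 0.140). For Rps10, a 40S protein that is ubiquitinated in human cells when ribosomes collide, 94.5% of the family's counts were in copies. Rps10 itself had 85, 57 and 46 counts in the knockout livers and 53, 65 and 102 counts in the control livers, and with copies 911, 996 and 1181 counts in the knockout livers and 1722, 1159 and 1452 counts in the control livers (log2 −0.33, adjusted p = 0.123). For Rpl17 and Rps10 the CPM of the groups overlapped, both in the gene itself and with copies.

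**Figure D3:**
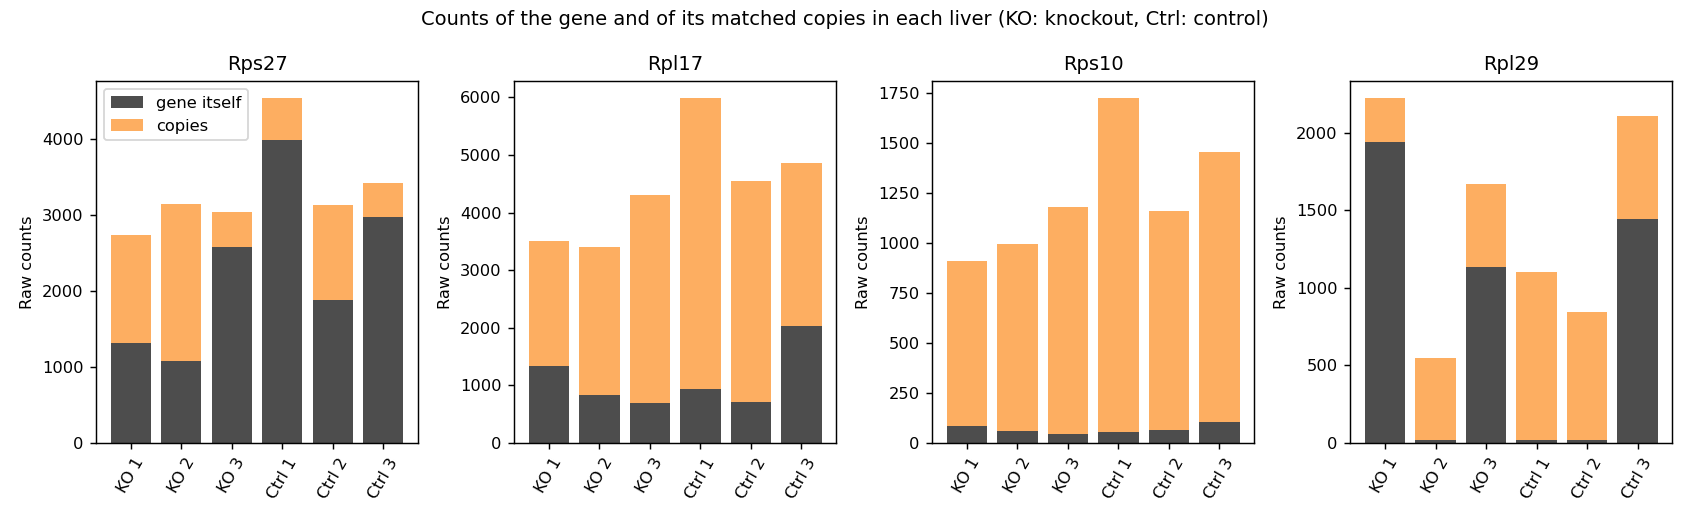
Raw counts (y axis) of 4 members (grey) and of their matched copies (orange) in each of the 6 livers, knockout livers left of control livers. The 3 livers with the fewest Rps27 counts have the most in Rps27rt, which is among its copies, most of the Rpl17 and Rps10 counts are in copies, and Rpl29 itself is at 17 to 18 counts in 3 livers.

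Per length, the standard members spanned a wide range. On a scale of family CPM (with copies) per kilobase of the shortest reference transcript, the median of the control livers was 313. Rplp1 was highest at 671 ± 105 in the knockout livers and 1028 ± 55.1 in the control livers, followed by Rpl41 at 654 ± 110 and 988 ± 49.97 and Rpl10 at 583 ± 77.9 and 611 ± 58.7 (SD, n = 3 each). The lowest were Rpl24 at 3.77 ± 0.271 in the knockout livers and 5.60 ± 0.557 in the control livers, Rpl13a at 11.8 ± 1.26 and 14.4 ± 1.96, and Rps20 at 41.7 ± 5.71 and 57.4 ± 2.98. The value of Rps20 is set by a reference transcript of 3706 bases. Rpl13a, which in human monocytes leaves the ribosome to silence mRNAs, has 35.4% of its exonic bases under the readthrough gene Gm45713, which had 0 counts, so these low levels are uncertain. Its log2 fold change was −0.25 (adjusted p = 0.275).

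Mitochondrial ribosomal proteins, which build the separate ribosome of the mitochondrion from nuclear genes, were not lower as a group. Of 77 tested, 0 passed as lower and 5 as higher in the knockout livers, with a median log2 fold change of 0.02, against 30 lower and 0 higher of 82 cytosolic members. The 5 higher genes are 6.49% of those tested, fewer than the 11.9% of all genes that were higher. Of all genes 13.1% were lower. At an unadjusted p under 0.05, 1 was lower and 7 were higher, and DESeq2 and limma-voom each called 0 lower and 5 higher. Those with the smallest p were Mrps35 (log2 0.59, adjusted p = 0.00604), Mrps5 (0.47, adjusted p = 0.0121), Mrps2 (0.46, adjusted p = 0.0220) and Mrpl47 (0.46, adjusted p = 0.0381). Mrps35, a protein of the small mitochondrial subunit, stood at 29.3, 30.9 and 30.4 CPM in the knockout livers and at 18.8, 21.5 and 19.96 CPM in the control livers, with no overlap. With any 1 liver left out 2 to 4 were higher, among them Mrps35 and Mrps5 each time. The direction of the mitochondrial set depends on the scaling: with library totals, which moved the median of all genes to −0.26, 8 were lower and 0 higher. The share of counts in mitochondrial ribosomal proteins was 0.216% ± 0.0213 in the knockout livers and 0.249% ± 0.00705 in the control livers (SD, n = 3 each), a smaller relative difference (−13.4%) than that of the cytosolic members (−33.8%).

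**Figure D4:**
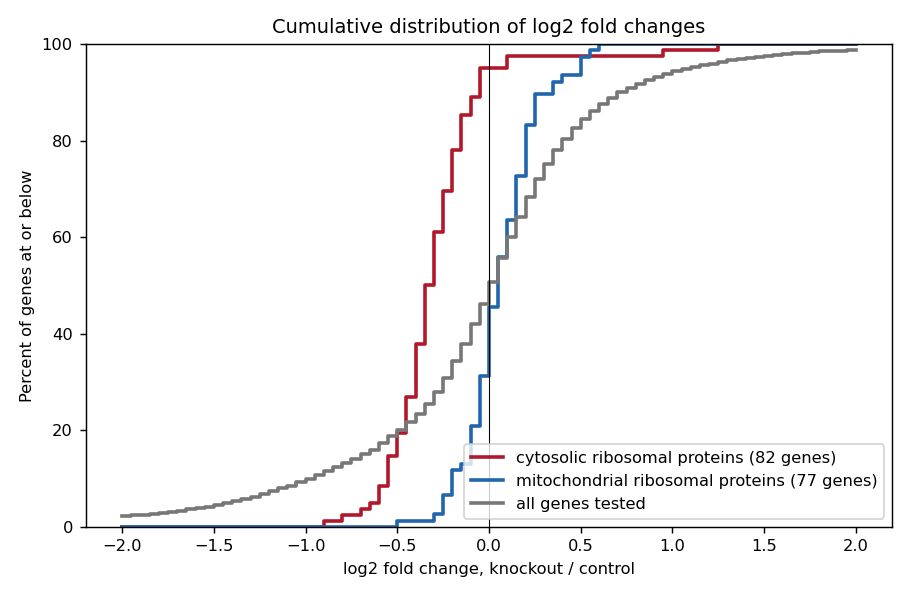
Percent of genes (y axis) at or below each log2 fold change of knockout over control (x axis) for the 82 cytosolic ribosomal protein genes, the 77 mitochondrial ones and all 14758 genes tested. Of the cytosolic genes 78 lie left of 0, with a median of −0.34 and the mitochondrial genes have a median of 0.02; with scaling on the ribosomal protein counts themselves the cytosolic median is 0.00.

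Of the ribosomal proteins with other symbols, Rack1, a scaffold on the head of the 40S subunit, stood at 257, 269 and 317 CPM in the knockout livers and at 417, 380 and 375 CPM in the control livers (log2 −0.48, SE 0.13, adjusted p = 0.0287). Fau, the fusion of a ubiquitin-like protein with a 40S protein, had a log2 fold change of 0.03 (adjusted p = 0.894). These and the lists that follow held 20 genes lower and 7 higher in all, and 9 to 15 lower and 1 to 5 higher with any 1 liver left out, while with library totals, which moved the median of all genes to −0.26, 55 were lower and 1 was higher. Of the genes named from them, Rps6ka3, Eif6, Deptor, Map3k20, Phlda3, Zmat3, Ccng1 and Mdm2 passed with any 1 liver left out, while each of the other called genes lost its call in at least 1 of these fits, Nvl and Epb41l4aos in all 6. Elongation factors and other genes with TOP mRNAs were called about as often as all genes. Of 19 tested, 3 were lower (15.8%, against 13.1% of all genes) and 2 were higher (10.5%, against 11.9%), with a median of −0.12. The eEF1B subunits Eef1g (−0.46, adjusted p = 0.0491) and Eef1b2 (−0.41, adjusted p = 0.0340) and the histone chaperone Nap1l1 (−0.41, adjusted p = 0.0345) were lower. The helicase Eif4a2 (0.82, adjusted p = 0.0253) and its partner Eif4b (0.55, adjusted p = 0.0306) were higher. Eef1g and Eef1a1 were chosen after their values were seen. Eef1a1, which carries aminoacyl-tRNA to the ribosome, stood at 3953, 3886 and 4672 CPM in the knockout livers and at 4817, 3786 and 3664 CPM in the control livers (log2 0.03, adjusted p = 0.929).

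The genes that make and assemble ribosomes were called less often by edgeR than all genes were. Of all genes 13.1% were lower and 11.9% higher, and each list in this paragraph had smaller shares in both directions. Of 31 initiation factors, 19 genes of RNA polymerase I and rRNA transcription and 13 chaperones and importers of ribosomal proteins, edgeR called 0. At an unadjusted p under 0.05 it found 2 lower and 1 higher, 2 lower and 1 higher, and 0 lower and 1 higher in these lists. DESeq2 called 1 initiation factor and 1 gene of rRNA transcription lower, and limma-voom called none in these lists. The genes with the smallest p were the start-codon scanning factors Eif1a (log2 −0.49, adjusted p = 0.0594) and Eif1 (0.35, adjusted p = 0.0978), the polymerase I factors Ubtf (0.27, adjusted p = 0.0846) and Taf1d (−0.42, adjusted p = 0.0879), and the chaperone list's Aar2 (0.31, adjusted p = 0.0689) and Heatr3 (0.30, adjusted p = 0.169). Of 41 snoRNP and rRNA processing genes 1 was lower by edgeR, Nhp2, a core protein of the H/ACA particles that guide pseudouridylation (log2 −0.62, adjusted p = 0.0260). Of 44 genes of 60S assembly, Eif6 and Nvl were lower. Eif6, which keeps free 60S subunits from joining 40S subunits, stood at 123, 97.6 and 127 CPM in the knockout livers and at 260, 227 and 170 CPM in the control livers (log2 −0.91, SE 0.18, adjusted p = 0.00858). Nvl, an ATPase that releases factors from precursors of the 60S subunit, had a log2 fold change of −0.37 (adjusted p = 0.0309). Of 18 genes of 40S assembly Riok2, a kinase of late maturation, was higher (0.39, adjusted p = 0.0339). Of 17 genes of ribosome rescue and turnover Map3k20, the kinase ZAK that senses collided ribosomes, was lower (−0.61, adjusted p = 0.00752).

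Among 21 genes of mTORC1, LARP1 and TOP mRNA control, 1 was lower and 2 were higher. These are 4.76% and 9.52%, against 13.1% lower and 11.9% higher of all genes. Deptor, an inhibitor that binds mTOR, stood at 201, 200 and 196 CPM in the knockout livers and at 126, 115 and 139 CPM in the control livers (log2 0.65, SE 0.11, adjusted p = 0.00524). Eif4ebp2, a repressor of cap-dependent initiation that mTORC1 turns off, stood at 305, 377 and 314 CPM in the knockout livers and at 218, 222 and 250 CPM in the control livers (log2 0.53, SE 0.13, adjusted p = 0.0208). Ddit4, a stress-induced inhibitor of mTORC1, stood at 20.4, 49.6 and 11.8 CPM in the knockout livers and at 133, 47.4 and 84.4 CPM in the control livers (log2 −1.69, SE 0.53, adjusted p = 0.0467), with an overlap at control liver 2 and no call by DESeq2. Of these inhibitors and repressors Ddit4 was lower and the others were higher. Mtor and Larp1, chosen after their values were seen, had log2 fold changes of −0.02 (adjusted p = 0.936) and 0.17 (adjusted p = 0.452). In the S6 kinase family Rps6ka3 (−0.75, adjusted p = 0.00614) and Rps6ka1 (−0.49, adjusted p = 0.0336) were lower, and Rps6kb2 (0.42, adjusted p = 0.0383) was higher, among 9 tested (22.2% lower and 11.1% higher). Of 11 host genes of small nucleolar RNAs, Epb41l4aos was higher (0.56, adjusted p = 0.0245) and Snhg15 was lower (−0.97, adjusted p = 0.0388), which is 9.09% in each direction.

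Free ribosomal proteins can raise p53 by holding MDM2, so p53 and its targets were read beside the members. Of 10 genes tested, 8 were lower and 0 higher in the knockout livers by each of edgeR, DESeq2 and limma-voom, and the median log2 fold change by edgeR was −0.98. By edgeR 13.1% of all genes were lower and 11.9% higher. Phlda3, a repressor of Akt, stood at 2.97, 2.07 and 4.14 CPM in the knockout livers, against 29.8, 28.8 and 26.8 CPM in the control livers (log2 −3.22, SE 0.22, adjusted p = 0.000179). Zmat3, an RNA-binding protein, had a log2 fold change of −1.58 (adjusted p = 0.000710), the cyclin Ccng1 one of −1.04 (adjusted p = 0.00124) and Mdm2 one of −0.92 (adjusted p = 0.00140). With any 1 liver left out, 6 to 8 of the 10 were lower. Rps27l, itself a p53 target in human cells, was among the members lower in the knockout, as given above.

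**Figure D5:**
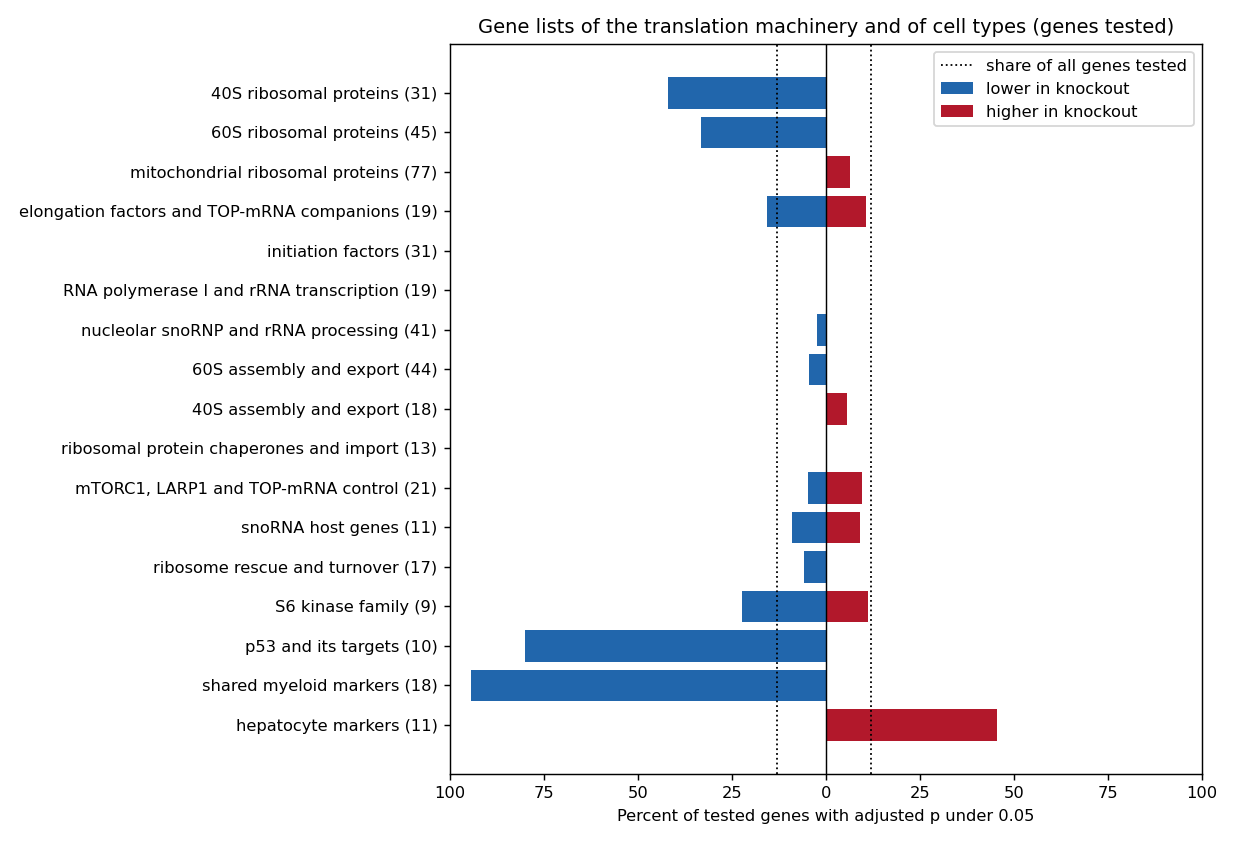
Percent of tested genes (x axis) with an adjusted p under 0.05, lower in the knockout to the left and higher to the right, in lists of the translation machinery and of cell types; numbers of tested genes are in parentheses. Dotted lines mark 13.1% lower and 11.9% higher over all genes; the 40S and 60S genes exceed the line for lower genes, and so do p53 with its targets and the shared myeloid markers.

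Markers of some cell types were lower, as the members were, and those of others were higher or mixed. The part of cell types in the result was not tested. Of all genes tested 13.1% were lower and 11.9% higher. Of 18 shared myeloid markers 17 were lower and 0 higher (median log2 −1.34), with a summed level of 273 to 481 CPM in the knockout livers and 722 to 870 CPM in the control livers. Of 12 Kupffer cell markers 8 were lower and 1 was higher (median −0.87), with sums of 392 to 669 CPM in the knockout livers and 921 to 990 CPM in the control livers. Of 10 tested B and T cell markers 3 were lower (median −0.79), at sums of 6.69 to 14.2 CPM in the knockout livers and 16.4 to 19.96 CPM in the control livers. Of 11 hepatocyte markers 5 were higher and 0 lower (median 0.68), with sums of 106795 to 145329 CPM in the knockout livers and 75330 to 91150 CPM in the control livers. All 5 erythroid genes tested were higher (median 1.14). Of 9 stellate cell markers 3 were lower and 1 was higher, and of 11 endothelial markers 0 passed by edgeR, with 2 lower at an unadjusted p under 0.05 and 1 lower by DESeq2 and by limma-voom. No myeloid, Kupffer cell or hepatocyte marker had 0 counts in every liver. Knockout liver 3, the one nearest the controls in ribosomal protein mRNAs, also had the highest myeloid and Kupffer cell sums and the lowest hepatocyte sum of the knockout livers. Between the other knockout livers the order turned: liver 1 had the lower ribosomal protein median (−0.49, against −0.42 in liver 2) but the higher myeloid sum (386 CPM, against 273 CPM) and Kupffer cell sum (541 CPM, against 392 CPM). The 20 most abundant genes took 22.5% ± 0.980 of counts in the knockout livers and 20.5% ± 0.618 in the control livers (SD, n = 3 each), and without them in the total the share of the members was 1.63% ± 0.216 in the knockout livers and 2.399% ± 0.0965 in the control livers.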

How the data were processed

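Liver RNA of 6 mice was sequenced after DNase treatment and selection of mRNA on poly-T beads, with random-hexamer priming and size selection of cDNA, per the labels' protocols. The authors deposited raw counts per Ensembl gene, 1 column per mouse. The submitters' processing notes list the tools featureCounts 1.5.0-p3, HISAT2 2.0.5 and StringTie 1.3.3b, without role or order, and as build GRCm38.p6. How strand and multi-mapping reads were handled, and which annotation was used, is not given in the sources used here.

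Identifiers were matched to GENCODE M21 (54495 of 54532). Endings in -ps were read as -ps with any digits (291 genes left out, 6 of them protein-coding), and 10 Rps6k kinases were left out. Genes kept by filterByExpr were scaled with TMM factors and tested over the whole table with edgeR 4.0.16 in R 4.3.3, with Benjamini-Hochberg adjustment and a threshold of 0.05. SE is the absolute log2 fold change divided by the square root of F. CPM uses TMM-scaled library sizes, and per-liver levels use a pseudocount of 0.5 CPM. Copies were matched with blastn 2.17.0, and promoters came from RefSeq. The fit was tested on simulated counts.

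The members and lists were chosen with earlier results of these data known. Named members were the non-standard members, the stalk proteins, the 6 with the smallest p per subunit and direction among those that passed, and the 3 highest and 3 lowest per length. The related lists gave the 4 passing genes of smallest p, or 2 where none passed. A few genes that this rule or the figure would show are counted but not reported here by name. Replicates are separate mice per the labels, and their counts differed by more than sampling noise (chi-square per degree of freedom at least 24.5). Mouse numbers were not used to pair livers across groups in the main fit. Shares carry no test, because an exact permutation test of 3 livers against 3 has a smallest two-sided p of 0.1. Alternatives were DESeq2 1.42.0, limma-voom (limma 3.58.1), other scalings, filters, thresholds, a block, a length and GC offset and leaving out each liver. Summing copies, the offset joined with copies or block, and the alternatives of the relative fit were added after seeing the data. The limit that a count of 0 allows, 3 counts, is 0.119 to 0.148 CPM per liver and covers counting error only.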

Additional observations from a re-analysis of the deposited data

How the results depend on the processing

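In the comparison over all genes no member passed as higher under any alternative run. The number of members lower was 30 (36.6%, against 13.1% of all genes). It was 24 to 37 under the other tests, filters, gene sets, summed copies and the length and GC offset. These were 28.2% to 45.1% of members, against 8.30% to 14.4% of all genes. At an adjusted p under 0.1 it was 45 (54.9%, against 17.5%). With library totals 67 were lower (81.7%), where lower calls over all genes also rose, to 25.1%. Scaled on the ribosomal proteins 1 was lower (1.22%, against 6.95%). At an adjusted p under 0.01 it was also 1 (1.22% of members, against 5.36% of all genes). With 1 liver left out 2 to 42 were lower (2.44% to 50.6% of members, against 7.78% to 12.1% of all genes). That share was below the share of all genes without knockout liver 1, knockout liver 2 or control liver 3. The cause of these moves was not tested, beyond the scaling on the members, which sets their level by construction. The median log2 fold change was −0.60 with library totals, where the median of all genes was −0.26, and 0.0045 when scaled on the ribosomal proteins, where that of all genes was 0.35, and −0.44 to −0.29 with 1 liver left out. Mitochondrial ribosomal proteins passing as higher numbered 5, and 0 with library totals, 30 when scaled on the ribosomal proteins, 1 at 0.01 and 2 to 4 with 1 liver left out. Those passing as lower numbered 0, and 8 with library totals and 0 to 1 with 1 liver left out. In the related lists 20 genes were lower, and 55 with library totals, 7 when scaled on the ribosomal proteins, 8 at 0.01 and 9 to 15 with 1 liver left out. There 7 were higher, and 1 with library totals, 54 when scaled on the ribosomal proteins, 4 with the block, 14 at 0.1, 1 at 0.01 and 1 to 5 with 1 liver left out. Relative to the ribosome 1 member was lower, and 2 with DESeq2, 2 without a filter, 0 with the block, 3 at 0.1, 0 at 0.01 and 0 to 2 with 1 liver left out. Relative to the ribosome 0 were higher, and 2 without a filter, 1 with the block, 1 at 0.1 and 0 to 2 with 1 liver left out. The share of counts differed by −0.748 to −0.574 percentage points with 1 liver left out. Of the values of single named genes under alternatives, 961 kept their side of the threshold, 218 lost it, 26 gained it and 0 changed direction with a call.

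Mouse numbers in the sample titles are shared by the groups, but same-numbered livers did not deviate together (correlations −0.027, 0.044 and −0.018). These correlations do not tell whether same-numbered livers share anything beyond a number. In the column headers of the counts, the control and knockout livers titled mouse 1 carry different numbers. With the title number as a replicate block 17 members were lower, all among the 30 (20.7% of members, against 11.2% of all genes). With the block and the length and GC offset together 22 were lower (26.8%, against 10.7% of all genes).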
